A study of Mus musculus with 4 samples.

Results

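The SOX family transcription factors Sox2, Sox3, Sox4, Sox5, Sox6, Sox9, Sox10, Sox11, Sox12 and Sox13 were read by gene symbol from a table of 49548 genes, and all 10 were present. The libraries came from Neuro2A, a mouse neuroblastoma cell line. Of the 4 libraries, 2 came from a stable Prox1-Tet-On line, in which doxycycline induces the homeodomain factor Prox1, and 2 from a stable GFP-Tet-On line, in which it induces GFP. Both lines are kept under G418 and hygromycin selection, and transgene expression was induced with doxycycline at 1 µg/mL; no time of induction and no library without doxycycline is among the data used here. Each transgene sat in a line of its own, so an effect of the line and an effect of Prox1 cannot be told apart. No label says whether replicates were grown separately, so each p-value reflects only spread between libraries, partly pooled over genes and possibly of technical origin. As these are bulk samples, fewer cells that make a transcript and less of it per cell cannot be told apart.

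SOX proteins bind DNA through an HMG box, which sits in the minor groove and bends the helix, and they act with partner factors such as POU and PAX proteins. By sequence they fall into groups: B1 (Sox2 and Sox3 here) maintains neural progenitors, C (Sox4, Sox11 and Sox12) acts in newly formed neurons, D (Sox5, Sox6 and Sox13) has no activation domain of its own, and E (Sox9 and Sox10) acts in neural crest, glia and cartilage. In the mouse embryo Sox11 and Sox4 are needed in turn for the growth of the sympathetic ganglia. These belong to the sympathoadrenal lineage, from which neuroblastoma arises. Sox10 marks the neural crest and Schwann cell precursors from which sympathetic neuroblasts come.

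The RNA was read with a 3′ end kit and given as normalised counts, meaning read counts scaled between libraries by the authors' DESeq. These summed to 6798014 to 7683100 per library, from an estimated 5910000 to 9610000 reads. Prox1 itself had 1304 and 2505 normalised counts in its own line against 2 and 3 in the GFP line, as the labels say. The GFP libraries differed widely from each other in Met, at 10 and 14834, and in Abl1, at 22765 and 557. The cause was not tested. Of 10 noradrenergic neuroblast markers 9 were above the minimum level for testing. Defining markers of other cell types were near or at 0. Of 8 Schwann and glial markers 5 were at 0 in every library, Foxd3, Cdh19, Fabp7 and Gfap among them, and 0 of the 2 tested passed (1 higher at an unadjusted p under 0.05; 0 in the authors' deposited table). The list summed to 44 and 79 normalised counts in Prox1 cells and 17 and 41 in GFP cells. The 8 mesenchymal markers summed to 5 to 39 and 4 to 15, with Col3a1, Lum and Twist1 at 0, and the 7 endothelial markers to 6 to 8 and 20 to 21, with Cdh5 and Pdpn at 0.

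Neuro2A cells held mostly group C transcripts of this family, and all 3 group C genes were lower in Prox1 cells. Sox4, Sox11 and Sox12 fell 1.61-fold to 1.78-fold, Sox9 was 1.28-fold lower without passing the test, and the other 6 members were at or near 0 in both lines. Summed over the 10 members, the level was 3393 and 3642 normalised counts in Prox1 cells and 5406 and 5749 in GFP cells, which is 464.7 and 535.7 against 758.9 and 748.3 per 1000000 normalised counts. The test was limma on log2(normalised count + 1), with Benjamini-Hochberg adjustment over the 13290 genes that had a mean of at least 10 normalised counts. Of the 4 members tested, 3 passed as lower and 0 as higher (0 higher also at an unadjusted p under 0.05), where 8.41% of all genes tested passed as lower and 7.57% as higher. In all 4 both Prox1 libraries lay below both GFP libraries, as in 29.9% of genes tested. The median log2 fold change of these 4 was -0.74, and that of all genes tested was -0.0017, with quartiles at -0.43 and 0.42.

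**Figure D1:**
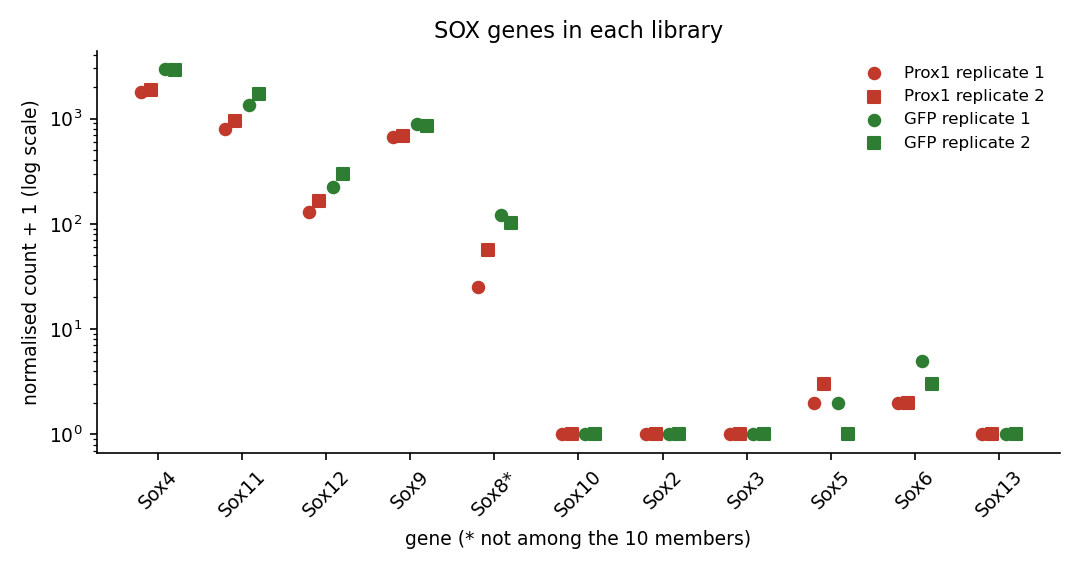
Normalised count + 1 (log axis) of the 10 members and of Sox8 in each of the 4 libraries; colour marks the line and shape the replicate. Sox4, Sox11, Sox12, Sox9 and Sox8 lie lower in both Prox1 libraries than in both GFP libraries, and Sox10, Sox2, Sox3 and Sox13 lie at a count of 0 in all 4, drawn at 1 on this axis.

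Sox4 was the most abundant member by either measure of level. Prox1 cells had 1793 and 1852 normalised counts of it and GFP cells 2951 and 2916, with means of 1822.5 ± 41.7 and 2933.5 ± 24.7 (SD, n = 2). The replicates of each line nearly coincided and the lines were far apart. The difference was -0.69 ± 0.21 (SE) on the log2(normalised count + 1) scale, with a 95% interval of -1.14 to -0.23 and a limma adjusted p of 0.0424. Sox4 (ENSMUSG00000076431, mm10 chromosome 13, positions 28948919 to 28953713, minus strand) has 1 exon, with 2780 bases of 3′ untranslated sequence in GENCODE M21. An overlapping long noncoding gene on the other strand, Gm26735, was at 0 in all 4 libraries.

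Sox11, which in the mouse precedes Sox4 in sympathetic ganglia, stood at 797 and 946 normalised counts in Prox1 cells and at 1337 and 1694 in GFP cells. Its replicates differed more than those of Sox4, and the higher Prox1 library was still below the lower GFP library. The means were 871.5 ± 105.4 and 1515.5 ± 252.4 (SD, n = 2), a 1.74-fold fall, and the log2 difference was -0.79 ± 0.22 (SE; 95% interval -1.27 to -0.32; limma adjusted p 0.0269). Sox11 (ENSMUSG00000063632, chromosome 12, positions 27334264 to 27342574, minus strand) also has 1 exon, with the longest 3′ untranslated sequence of the 4 tested members, at 6957 bases.

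Sox12, the third group C gene and the weakest activator of that group, was at 128 and 162 normalised counts in Prox1 cells and at 223 and 293 in GFP cells. Again the groups did not overlap. The means were 145.0 ± 24.0 and 258.0 ± 49.5 (SD, n = 2), a 1.78-fold fall, with a log2 difference of -0.82 ± 0.26 (SE; 95% interval -1.38 to -0.27; limma adjusted p 0.0455). Sox12 (ENSMUSG00000051817, chromosome 2, positions 152393611 to 152398063, minus strand) is, like the other group C genes, a gene of 1 exon, with 3143 bases of 3′ untranslated sequence.

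Any link between promoter sequence and the levels of the group C genes was not tested. The sequence at their starts is shown, from 250 bases before to 50 after the RefSeq transcription start. It was taken from RefSeq on GRCm38.p6, all on the minus strand. The positions are chr13:28953650-28953949 for Sox4, chr12:27342669-27342968 for Sox11 and chr2:152397997-152398296 for Sox12. Capitals mark the CCAAT box, a common promoter element, searched on both strands as CCAAT or ATTGG.
Sox4: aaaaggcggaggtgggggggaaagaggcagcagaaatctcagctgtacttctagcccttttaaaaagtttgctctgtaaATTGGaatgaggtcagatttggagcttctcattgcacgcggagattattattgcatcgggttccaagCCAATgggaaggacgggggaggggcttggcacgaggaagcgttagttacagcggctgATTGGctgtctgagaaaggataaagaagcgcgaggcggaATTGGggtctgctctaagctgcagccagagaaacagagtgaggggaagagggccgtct
Sox11: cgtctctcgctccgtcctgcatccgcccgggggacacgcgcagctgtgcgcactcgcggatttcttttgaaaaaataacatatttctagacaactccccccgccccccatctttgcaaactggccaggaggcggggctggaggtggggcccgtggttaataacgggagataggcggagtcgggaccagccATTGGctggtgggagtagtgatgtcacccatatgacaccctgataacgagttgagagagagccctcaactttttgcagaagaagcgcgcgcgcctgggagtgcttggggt
Sox12: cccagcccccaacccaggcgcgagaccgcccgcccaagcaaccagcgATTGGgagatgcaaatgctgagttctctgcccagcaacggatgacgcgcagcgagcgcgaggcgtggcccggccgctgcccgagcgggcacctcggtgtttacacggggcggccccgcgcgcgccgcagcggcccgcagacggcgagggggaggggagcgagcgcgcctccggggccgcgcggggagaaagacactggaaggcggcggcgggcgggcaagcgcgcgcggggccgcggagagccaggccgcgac

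All 3 windows hold a CCAAT box, as do 37.4% of the 32851 promoter windows of this length in the table. Sox4 has 4, with first bases at -171, -104, -47 and -8 from the start, Sox11 has 1 at -60 and Sox12 has 1 at -203. The SOX core, searched as ACAAT or ATTGT, is in none of the 3 windows and in 31.02% of all windows, and a TATA box, searched as TATAAA or TTTATA, is in none of the 3 and in 13.6% of all. The letters of the CCAAT box and the SOX core cannot lie on the same 5 bases but can overlap in part, as can the 2 forms of the TATA box. The windows of Sox4, Sox11 and Sox12 are 52.0%, 58.7% and 76.7% G or C, against a median of 52.7% over all windows. The table has windows for 7 of the 10 members; it has none for Sox9, Sox3 or Sox10.

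The fold changes of the 3 group C genes were alike, and their proportions within a library did not separate the lines. The ratio of Sox11 to Sox4 normalised counts was 0.445 and 0.511 in Prox1 cells and 0.453 and 0.581 in GFP cells. The ratio of Sox12 to Sox11 was 0.161 and 0.171 against 0.167 and 0.173. These ratios do not depend on the scaling between libraries, and for both pairs the groups overlapped. Each of the 95% intervals of the 3 log2 differences held the other 2 values; differences between the members' fold changes were not tested.

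**Figure D2:**
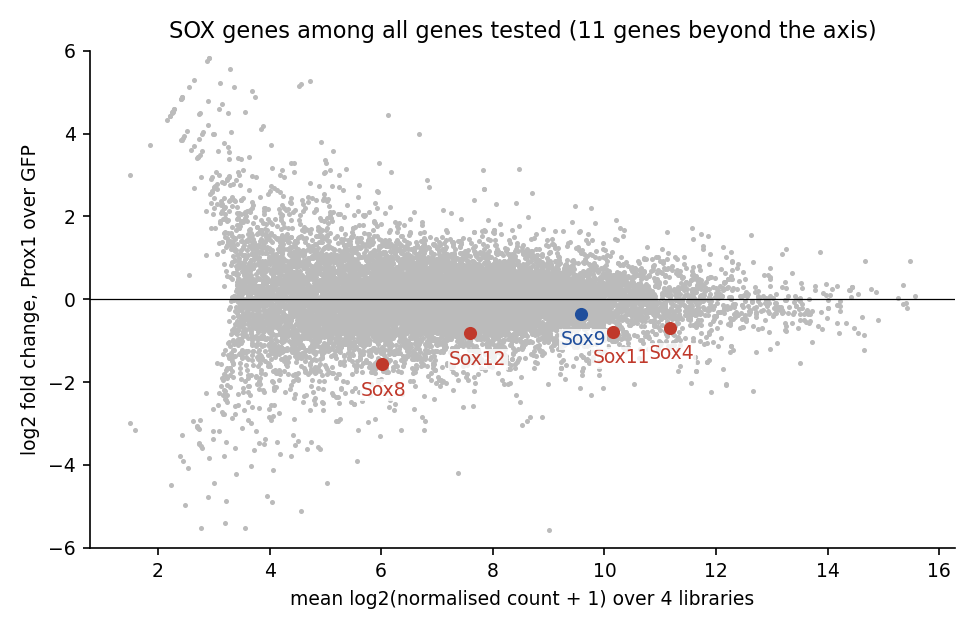
Log2 fold change (Prox1 over GFP) against mean log2(normalised count + 1) for the genes tested by limma (grey). Sox4, Sox11, Sox12 and Sox8 (red, adjusted p under 0.05) and Sox9 (blue, not past it) lie below 0, inside the cloud of other genes at the same level.

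These calls sat close to the threshold. Leaving out each library in turn left limma with 0 calls in the whole table, where 2365 to 2981 genes had an unadjusted p under 0.05. Sox4 then had an unadjusted p of 0.028 to 0.040, while the unadjusted p of Sox11 and Sox12 missed 0.05 without Prox1 replicate 1 or without GFP replicate 2 (0.057 to 0.096). In the table that the authors deposited, where 2.71% of 11933 genes passed DESeq as lower in Prox1 cells, 0 of the 4 members passed, with 2 (Sox11 and Sox12) at an unadjusted p under 0.05; the DESeq adjusted p there was 0.469 for Sox4, 0.290 for Sox11, 0.274 for Sox12 and 0.757 for Sox9.

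**Figure D3:**
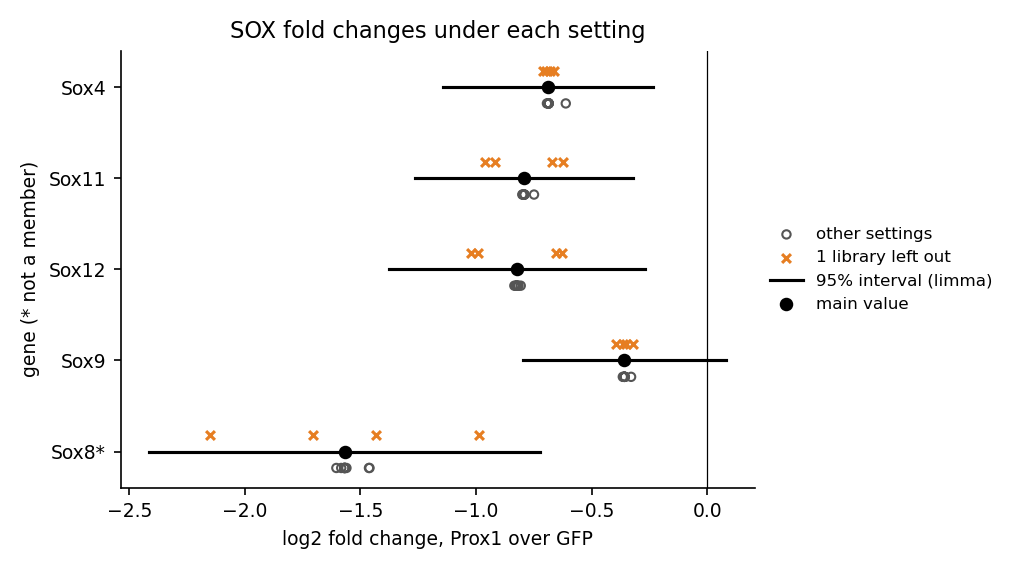
Log2 fold change (Prox1 over GFP) of the 4 tested members and Sox8: the value with its 95% interval from limma (black), values under other settings and in the authors' table (grey circles) and values with 1 library left out (orange crosses). All are below 0, between -0.61 and -1.02 for the group C genes, and the interval of Sox9 crosses 0.

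The group C genes lie on different chromosomes. Within 500 kb of Sox4, 0 of 3 genes tested passed. Within 500 kb of Sox11 lay 2 genes, of which 0 were tested. Of the 14 tested near Sox12, 1 rose (Mcts2) and 2 fell (Cox4i2 and Gm14165). Over all genes tested 7.57% rose and 8.41% fell. These neighbours were looked up after the values had been seen.

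By the authors' value per length, which divides the normalised count by a length per gene, the order of the members was Sox4, Sox9, Sox11 and Sox12, the same in all 4 libraries. Per kilobase Sox4 was at 474.5 and 490.1 in Prox1 cells and 780.9 and 771.6 in GFP cells, and Sox9 at 192.1 and 193.8 against 254.0 and 240.9. Sox11 was at 100.2 and 118.9 against 168.0 and 212.9 per kilobase, and Sox12 at 30.9 and 39.1 against 53.8 and 70.7. No neighbours in this order overlapped within a line. In a 3′ end library reads come from near the transcript's end whatever its length, and in undivided normalised counts Sox11 stood above Sox9 in every library.

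In group E, Sox9, which drives cartilage and glial fates and keeps neural stem cells, was at 673 and 679 normalised counts in Prox1 cells and at 890 and 844 in GFP cells. The groups did not overlap, with means of 676.0 ± 4.2 and 867.0 ± 32.5 (SD, n = 2). The log2 difference was -0.36 ± 0.20 (SE), with a 95% interval of -0.80 to 0.08, and it did not pass (limma adjusted p 0.250). Its share of the summed member counts was 19.8% and 18.6% in Prox1 cells against 16.5% and 14.7% in GFP cells. The ratio of Sox4 to Sox9 was 2.66 and 2.73 against 3.32 and 3.45, so the lines were apart in this ratio, with n = 2 in each, where an exact permutation test (two-sided) cannot give a p below 0.333. Sox9 (ENSMUSG00000000567) lies on chromosome 11, positions 112782224 to 112787760, plus strand, and 0 of 2 genes tested within 500 kb passed.

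Sox10, the group E factor of neural crest, Schwann cells and melanocytes, was at 0 in all 4 libraries. A count of 0 allows up to 3 reads, which by the estimated reads is 2.399 to 3.618 normalised counts, or 0.312 to 0.508 per 1000000, in a library; this limit covers counting error only. The remaining group E gene, Sox8, was not among the 10 members but was the only other gene named Sox or Sry in the table that was tested, and it had the largest log2 difference of the 5 SOX genes tested. It was at 24 and 55 normalised counts in Prox1 cells and at 121 and 100 in GFP cells, with a log2 difference of -1.57 ± 0.39 (SE; limma adjusted p 0.0170). The authors' deposited table gives it a DESeq adjusted p of 0.096. Its Prox1 replicates differed more than 2-fold, and without Prox1 replicate 1 or 2 the log2 difference was -0.99 or -2.15.

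In group B1, Sox2 and Sox3, the factors of neural progenitors and, for Sox2, of pluripotent cells, were at 0 in all 4 libraries, with the same limit as Sox10. Sox2 (ENSMUSG00000074637) lies on chromosome 3, positions 34650405 to 34652461, plus strand, and Sox3 (ENSMUSG00000045179) on chromosome X, positions 60891366 to 60893430, minus strand. Their relative Sox1 had 1 normalised count in 1 Prox1 library. Sox2ot, a long noncoding gene that spans Sox2, was at 1 and 2 in Prox1 cells and 0 in GFP cells, at or under the limit.

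Group D was likewise near 0. Sox13 was at 0 in all 4 libraries, Sox5 at 1 and 2 in Prox1 cells and 1 and 0 in GFP cells, and Sox6, which acts with Sox5 and Sox9 in cartilage, at 1 and 1 against 4 and 2. No fold is given for these, since both lines were at or under 3 normalised counts on average. Of the 18 other genes named Sox or Sry, antisense and intronic ones included, 12 were at 0 in all libraries, and the 5 besides Sox8 that were above 0 (Sox1, Sox7, Sox18, Sox2ot and Sox5os5) reached at most 2. Sox7 and Sox18, which act in endothelium, were at 1 and 0 against 0 and 0, and at 2 and 1 against 0 and 2.

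Known targets of SOX proteins went in different directions, and most were too low to test. These and the following gene lists were chosen with earlier results of these data known. For comparison with each list, 7.57% of all genes tested rose and 8.41% fell. Of 4 group C targets, 3 were tested, of which 1 rose and 0 fell; at an unadjusted p under 0.05 the counts were 1 and 1, and in what the authors' deposited table lists they were both 0. The dendrite protein Map2 rose 1.67-fold, at 607 and 625 normalised counts in Prox1 cells and 432 and 306 in GFP cells (log2 difference 0.76 ± 0.23 SE; limma adjusted p 0.0407). The neuronal tubulin Tubb3, which Sox11 can activate, was at 1409 and 2046 against 2540 and 3215, with no overlap, and missed the threshold (log2 difference -0.75 ± 0.24 SE; limma adjusted p 0.0533). Its call depended on the setting: it passed as lower with a mean of at least 50, a pseudocount of 5 or the replicate number as a block. The median log2 fold change of the 3 was 0.61, which is the value of Dcx alone. Dcx was low, at 15 and 20 normalised counts in Prox1 cells and 8 and 15 in GFP cells. Its groups were not apart, and it did not pass (limma adjusted p 0.496).

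Of 11 targets of Sox10 in glia, melanocytes and enteric neurons, 5 were tested, of which 0 rose and 1 fell (1 and 1 at an unadjusted p under 0.05; median 0.23), and Gjb1 and Dct were at 0 throughout. The receptor tyrosine kinase Ret was at 1335 and 1687 in Prox1 cells and 3743 and 5538 in GFP cells, a 3.07-fold fall (limma adjusted p 0.00148). The GFP libraries diverged widely in Met and Abl1, and any part of such divergence in the fall of Ret was not tested. Of 7 group B1 targets 0 were tested, with Fgf4, Utf1, Nanog and Lefty1 at 0. The cartilage list held 10 targets of Sox9, not all of them cartilage genes. Only 1 was tested, Nfia, which is not specific to cartilage and did not pass (limma adjusted p 0.598). The cartilage collagen Col2a1 was at 0 in all 4 libraries.

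Of 11 partner factors 6 were tested, of which 0 rose and 1 fell, with 2 and 1 at an unadjusted p under 0.05, and in the authors' deposited table none passed. The neural crest factor Pax3 fell 2.51-fold, from 71 and 82 to 34 and 27 normalised counts (limma adjusted p 0.0234). The POU factor Pou2f1 was at 621 and 647 against 450 and 353 (limma adjusted p 0.0543), and Pou3f2, a classic partner of Sox11, was at 2 to 5 in all libraries. The median log2 fold change was 0.17.

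Among HMG-box genes outside the family 18 of 21 were tested. Of these 1 rose and 2 fell (1 and 3 at an unadjusted p under 0.05, median 0.07), or 5.56% and 11.1%. Over all genes tested the shares were 7.57% and 8.41%. Hmgb3, a chromatin protein, rose 2.49-fold, at 535 and 573 against 282 and 163 (limma adjusted p 0.00489). Tox and Tox2, nuclear HMG-box proteins, fell 3.45-fold, from 189 and 170 to 52 and 52, and 2.14-fold, from 797 and 1039 to 453 and 404 (limma adjusted p 0.00153 and 0.00602). In the authors' deposited table Hmgb3 and Tox passed too, with a DESeq adjusted p of 0.0187 and 0.0101. Tox2 did not pass there (DESeq adjusted p 0.0753). The other 15 tested, with Hmgb1 at 1447 and 1601 against 1197 and 1432, did not pass. Among noradrenergic neuroblast markers 5 of 9 tested fell and 1, Gata2, rose (median -0.88), and the 10 summed to 4756 to 5264 normalised counts in Prox1 cells and 6835 to 7323 in GFP cells. The authors' deposited table calls 1 of them lower and 0 higher. The steepest falls were in Th, the tyrosine hydroxylase of catecholamine synthesis (3.64-fold), and Gata3 (2.66-fold).

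**Figure D4:**
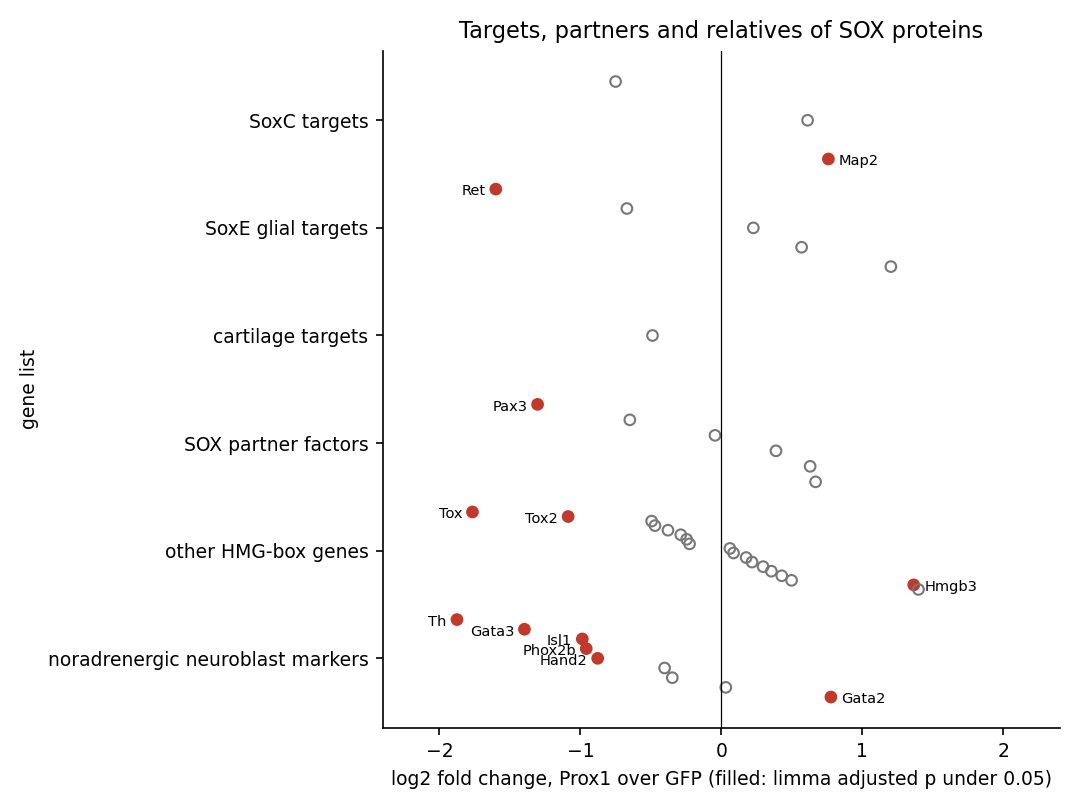
Log2 fold change (Prox1 over GFP) of tested genes in lists of SOX targets, SOX partners, other HMG-box genes and noradrenergic markers; filled points passed limma at an adjusted p under 0.05 and are named. Filled points lie on both sides of 0, with Map2, Hmgb3 and Gata2 above it and Ret, Pax3, Tox, Tox2 and 5 noradrenergic markers below it.

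The genes most like Sox4 over the 4 libraries, among 891 with a mean within 2-fold of its own, were Elavl2, Rpl6 and Nrxn2, with Euclidean distances of 0.0353, 0.0996 and 0.104 between centred log2 values. These distances describe 4 libraries. Elavl2, a neuronal RNA-binding protein, was at 917 and 953 normalised counts in Prox1 cells and at 1510 and 1454 in GFP cells (limma adjusted p 0.0425). The ribosomal protein gene Rpl6, a family with many near-identical copies, was at 1703 and 1664 against 2693 and 2515, and the synaptic protein Nrxn2 at 941 and 1049 against 1530 and 1520; neither passed (limma adjusted p 0.0581 and 0.0576).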

How the data were processed

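The authors' deposited table holds, per the file headers, log2 of a normalised count plus 1 per library, a signal per length, p-values and log2 fold changes. The submitters' processing notes name the authors' tool DESeq and mm10; aligner, counting, strand use and filters were not given in the sources used here. Exponentiating the log2 values returned whole numbers, so the authors rounded after scaling and no count model could be run; the planned limma test on log values was used. Total reads were inferred from gaps among the rounded values. Overlapping, antisense and near-identical genes are uncertain in such counts.

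Groups came from sample titles. limma 3.58.1 (R 4.3.3; lmFit, eBayes with trend) compared Prox1 with GFP on log2(normalised count + 1) for 13290 genes with a mean of at least 10, by a two-sided test adjusted by Benjamini-Hochberg (threshold 0.05). Fold changes are ratios of mean normalised counts. Replicates were distinct libraries (chi-square over degrees of freedom 21.05 and 22.83). Alternatives changed scaling, filter, pseudocount, variance model, block and libraries. Named genes were the members, other Sox genes above 0, Prox1, per list up to 2 called genes each way or the lowest p, and the 3 genes nearest to Sox4; other list genes were picked after their values were seen. The members and lists were chosen with earlier results of these data known. Some list genes that this rule names are not reported here.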

Additional observations from a re-analysis of the deposited data

How the results depend on the processing

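The direction of Sox4, Sox11, Sox12, Sox9 and Sox8 was the same under every alternative, TMM and cyclic loess scaling included. The count of called members, 3 of 4 tested, was 3 with cyclic loess, a mean of at least 50, either other pseudocount (5 or 0.5) or vooma weights, and 2 with TMM, where Sox12 missed the threshold (adjusted p 0.0578). It was 0 without a filter (0 genes called in all, 4421 at an unadjusted p under 0.05), without the variance trend (1057 of 13290 genes called, against 2124) and in the authors' DESeq table (551 genes called); at an unadjusted p under 0.05 it was 3, 3 and 2. With each library left out it ranged from 0 to 0, as did the count of all genes called, and the unadjusted counts were 1 to 3 members and 2365 to 2981 genes. The cause of these losses was not tested, other than that leaving out a library leaves fewer samples; the line with 1 library is then assumed to vary like the other. Replicate numbers were not taken as pairs, since no label ties them and deviations of same-numbered libraries correlated at -0.051 across genes. With the replicate block limma called 2528 genes and 2 members, with Sox4 at an adjusted p of 0.0578. The count of group C targets that fell was 1 (Tubb3) in place of 0 with a mean of at least 50, a pseudocount of 5 or the replicate block, and that of partner factors that rose was 1 in place of 0 with cyclic loess, a mean of at least 50 or the block. Over 18 single genes and 249 values under alternatives, 159 kept direction and side of the threshold, 89 lost their call and 1 changed sign: Pdgfra, which was not called, ranged from -0.52 (without Prox1 replicate 1) to 2.69 with a library left out. With 2 libraries a line, the 95% interval of Sox9 (-0.80 to 0.08) still held the log2 differences of Sox4 and Sox11.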
